A study of Sus scrofa with 4 samples.

Results

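H/ACA box small nucleolar RNAs (snoRNAs) were followed here as the short fragments they leave in small RNA libraries. A family was taken as a member where its name in the Rfam entries of the deposited tables began with SNORA, and the reads of all its entries were summed. This gave 48 SNORA families of the 433 Rfam families listed, and 493 of the 41706 Rfam entries. Of the 48 families, 47 had at least 1 read, 14 had a read in all 4 libraries, and SNORA79 had none.

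The 4 libraries came from primary pig vascular stem cells at passage 1, with 1 library per group and therefore no replicates. IVSC cells were isolated from the dorsal longissimus dorsi muscle and SVSC cells from subcutaneous fat, and both were grown in 20% serum. The IVSC MDI and SVSC MDI libraries came from the same cell types after adipogenic induction. MDI stands for insulin at 5 mg/l, the glucocorticoid dexamethasone at 0.25 µM and IBMX, which inhibits phosphodiesterases, at 0.5 mM. The last 2 of these were removed after 3 days, growth medium was given at day 6, and the cells went on for 3 or 4 further days, with no statement of which applied to which cells. The labels call the cell type adipose derived for all 4 libraries, also for the muscle cells, and whether the cultures share an animal is not given. RNA fragments of 16 to 35 nt were sequenced. A read from a snoRNA was therefore always a piece of it: the median listed length was 202 nt for SNORA73 and 137 nt for SNORA2.

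H/ACA snoRNAs fold into a pair of hairpins joined by a hinge box and ending in an ACA box, and they bind dyskerin, NHP2, NOP10 and GAR1. Most of them guide the conversion of uridine to pseudouridine in ribosomal RNA. SNORA73, also called U17 or E1, is an exception that acts in the cleavage of the ribosomal RNA precursor. Most vertebrate snoRNAs are cut out of introns of host genes, many of which encode ribosomal proteins or are non-coding snoRNA host genes (SNHG), and short fragments of snoRNAs are a regular part of small RNA libraries.

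The libraries held 21590587 reads for IVSC, 20739428 for IVSC MDI, 25725723 for SVSC and 5166494 for SVSC MDI. Levels are given as RPM (reads per 1000000 reads of the library), and 3 reads, the number taken as the limit of a count of 0, were worth 0.139, 0.145, 0.117 and 0.581 RPM in that order. The shallowest library also differed in makeup: hairpin (miRNA) reads were 55.0% of the SVSC MDI library and 70.2% to 77.0% of the other libraries, and reads on Ensembl non-coding RNAs were 38.5% against 14.0% to 19.3%. The part of this makeup in the SNORA levels was not tested. The mesenchymal miR-143, miR-145, miR-199a and miR-214 were present in all 4 libraries. The skeletal muscle miR-206 had 64588 reads in IVSC and 2068 in IVSC MDI, and 50 in SVSC and 4 in SVSC MDI. The other muscle markers ranged from 24 reads (miR-133b in SVSC) to 32606 reads (miR-1 in SVSC), and not all followed miR-206. In the same order of libraries, miR-1 stood at 762, 630, 1267 and 329 RPM and miR-133a at 48.0, 61.0, 15.1 and 98.9 RPM. For miR-133b the values were 42.2, 11.8, 0.933 and 8.13 RPM. The blood marker miR-142 had 50 to 383 reads and the epithelial marker miR-205 2 to 9, while the liver marker miR-122 had 5 to 432 and the endothelial marker miR-126 164 to 1777. No hairpin was listed for miR-223, miR-200b or miR-200c. In bulk RNA of this kind, fewer cells of a type and less RNA per cell cannot be told apart.

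All SNORA entries together held 6740 reads in IVSC and 4756 in IVSC MDI, and 6623 in SVSC and 663 in SVSC MDI. Scaled to depth, these were 312 RPM (95% exact Clopper-Pearson interval 305 to 320) in IVSC, 229 RPM (223 to 236) in IVSC MDI, 257 RPM (251 to 264) in SVSC and 128 RPM (119 to 138) in SVSC MDI. IVSC was highest and SVSC MDI lowest, and no interval overlapped another. These intervals, and all those of ratios below, cover counting error only, and they are too narrow because 1 read can be counted in several entries of a family. No p-value is given for a pair of libraries, since each group has 1.

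With MDI, the SNORA sum was 0.735 times its IVSC level (0.708 to 0.762, log2 -0.44) and 0.498 times its SVSC level (0.460 to 0.540, log2 -1.004). Between the origins, SVSC stood at 0.825 times IVSC (0.797 to 0.853) without MDI, and SVSC MDI at 0.560 times IVSC MDI (0.515 to 0.607). A difference was called when it was at least 2-fold with an interval that excluded 1, and only the SVSC pair, 2.01-fold lower with MDI, met this. Scaled to hairpin reads in place of all reads the SVSC pair stood at 0.683 (0.629 to 0.740), and scaled to Rfam reads at 0.686 (0.633 to 0.744), so that call was lost under both. The log2 response to MDI was lower in SVSC than in IVSC by a difference of -0.56 (counting interval -0.69 to -0.43). That difference depended on the scaling and on how reads in several entries were counted. It was 0.028 (-0.099 to 0.15) scaled to hairpin reads. On the fewest distinct reads that each family could hold, a lower bound, it was -0.13 (-0.31 to 0.058), and both intervals included 0.

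The C/D box snoRNAs, the other large snoRNA class, which guide 2′-O-methylation, were listed as 72 SNORD families. Their sum was 506 RPM in IVSC and 667 in IVSC MDI, and 653 in SVSC and 330 in SVSC MDI. With MDI the SNORD sum was 1.32 times its IVSC level, where the SNORA sum was 0.735 times, and 0.505 times its SVSC level, where the SNORA ratio was 0.498. The number of SNORA reads per SNORD read was 0.617 in IVSC and between 0.344 and 0.394 in the other libraries. On the fewest distinct reads of each family, this order was not kept. SNORA reads per SNORD read were then 0.317 in IVSC and 0.195 in IVSC MDI, and 0.185 in SVSC and 0.362 in SVSC MDI, the highest of the 4. On the same count the ratio of SVSC MDI to SVSC was 0.395 (0.369 to 0.422) for SNORD and 0.773 (0.688 to 0.866) for SNORA, while that of IVSC MDI to IVSC was 1.37 (1.33 to 1.41) and 0.844 (0.794 to 0.897). Of the 344 distinct SNORA reads in SVSC MDI, 39 were on SNORA38, and all of these also matched entries of other families, as described below. The values on distinct reads were not taken without SNORA38.

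SNORA73 made up most of the SNORA sum in every library. It held 6147 reads in IVSC and 4334 in IVSC MDI, and 6039 in SVSC and 477 in SVSC MDI, equal to 285, 209, 235 and 92.3 RPM. Its share of SNORA reads was 91.2% (90.5% to 91.9%) in IVSC, 91.1% (90.3% to 91.9%) in IVSC MDI and 91.2% (90.5% to 91.9%) in SVSC, but 71.9% (68.4% to 75.3%) in SVSC MDI. The interval of SVSC MDI lay below those of the other 3 libraries. On the fewest distinct reads the share was smaller in each library. SNORA73 then held 1912 of 2330 SNORA reads in IVSC and 1541 of 1889 in IVSC MDI. In SVSC it held 1727 of 2217, and in SVSC MDI 200 of 344.

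The other 46 families with a read held 593, 422, 584 and 186 reads in the same order. That was 27.5 RPM (25.3 to 29.8) in IVSC, 20.3 RPM (18.5 to 22.4) in IVSC MDI, 22.7 RPM (20.9 to 24.6) in SVSC and 36.0 RPM (31.0 to 41.6) in SVSC MDI. Without SNORA73 the highest level was thus in SVSC MDI, the library where SNORA73 was lowest. The ratio of SVSC MDI to SVSC was then 1.59 (1.34 to 1.87), against 0.393 (0.358 to 0.432) for SNORA73, and that of SVSC MDI to IVSC MDI was 1.77 (1.48 to 2.11), against 0.442 (0.401 to 0.486). In the plot of SNORA73 beside the other families, SVSC MDI is the lowest bar for the former and the highest for the latter.

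**Figure D1:**
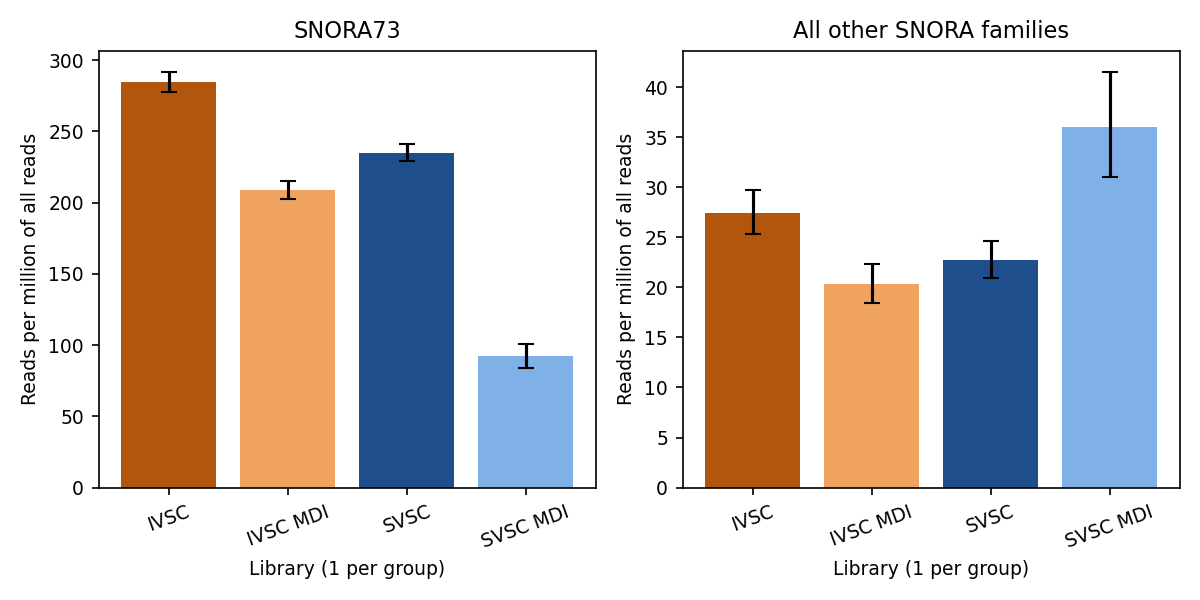
RPM on SNORA73 (left) and on all other SNORA families together (right), 1 bar per library. Error bars are exact 95% Clopper-Pearson intervals and cover counting error only. SNORA73 is lowest in SVSC MDI (92.3 RPM), and the other families together are highest there (36.0 RPM).

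Part of the excess of the other families in SVSC MDI was SNORA38, described below. Without SNORA73 and SNORA38 the ratio of SVSC MDI to SVSC was 1.25 (1.04 to 1.50), and that of SVSC MDI to IVSC MDI was 1.48 (1.21 to 1.79). The same 2 ratios were below 1 only with SNORA73 in the sum.

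The reads of SNORA73 lay on few entries. Rfam lists 127 SNORA73 entries, which are copies and homologs from several genomes, and 5 of them held 92.6%, 96.3%, 94.0% and 98.1% of its reads in the libraries, taken in the order IVSC, IVSC MDI, SVSC, SVSC MDI, which is kept for all such runs of values. Of all SNORA73 reads counted, 14.7% matched no other listed entry, so most were counted more than once. If each read counts once at most, SNORA73 had at least 1912, 1541, 1727 and 200 distinct reads. On that count the ratio of SVSC MDI to SVSC was 0.577 (0.496 to 0.668) and that of IVSC MDI to IVSC was 0.839 (0.784 to 0.898). SNORA73 was then less than 2-fold lower in SVSC MDI, and no call was made. On summed reads the ratio of SVSC MDI to SVSC was 0.539 scaled to hairpin reads and 0.542 scaled to Rfam reads, also without a call.

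The entry with the most reads, with 1744, 1446, 1618 and 195, held reads of both kinds. Its reads that matched no other entry numbered 775 in IVSC and 797 in IVSC MDI, and 645 in SVSC and 127 in SVSC MDI, or 35.9, 38.4, 25.1 and 24.6 RPM. With MDI their ratio was 1.07 (0.969 to 1.18) in IVSC and 0.980 (0.804 to 1.19) in SVSC, and both intervals included 1. Between origins they were 0.698 times as high in SVSC as in IVSC (0.628 to 0.776).

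The reads that this entry shared with others behaved differently. They numbered 969, 649, 973 and 68, or 44.9, 31.3, 37.8 and 13.2 RPM in the same order. With MDI their ratio was 0.697 (0.630 to 0.771) in IVSC and 0.348 (0.268 to 0.445) in SVSC, and the latter pair was called as 2.87-fold lower. Within 1 entry and scaled to all reads, the shared reads therefore carried the lower SNORA73 level after MDI. Scaling to hairpin reads shifts the log2 ratios of both kinds by 0.45 in SVSC, from -0.029 (unique) and -1.52 (shared). What the unique reads did with MDI thus depends on the scaling, while the gap between the kinds does not. The entries beyond the leading 5 went the same way, with 455, 160, 360 and 9 reads and ratios of 0.366 (0.304 to 0.439) in IVSC and 0.124 (0.0565 to 0.239) in SVSC. This split was made after the values had been seen, and which part of the snoRNA each kind of read covers was not analysed here.

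**Figure D2:**
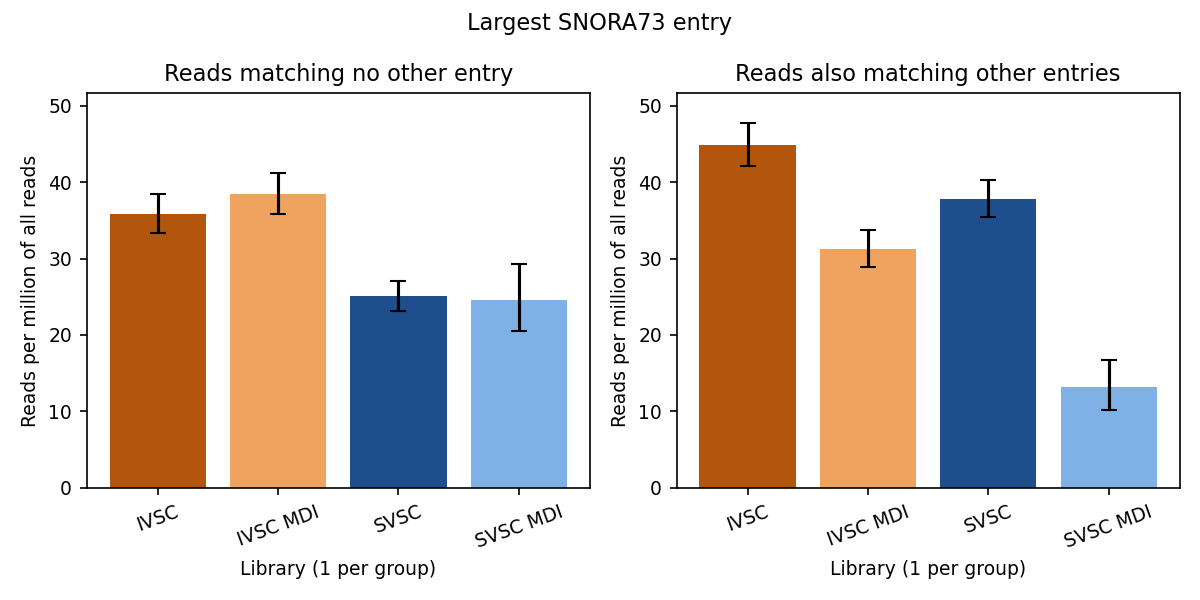
RPM on the SNORA73 entry with the most reads, split into reads that match no other listed entry (left) and reads that also match other entries (right), 1 bar per library with exact 95% counting intervals. At this scaling the left bars differ little with MDI in either origin (35.9 and 38.4 RPM in IVSC, 25.1 and 24.6 RPM in SVSC). The shared reads are lowest in SVSC MDI (13.2 RPM).

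The other families were far less abundant than SNORA73. SNORA2 was the next by mean level and held 2.35% of all SNORA reads as summed over entries. In all, 16 families had 20 reads or more over the 4 libraries and 7 had 100 or more. The remaining 32 held 132 reads together, the largest of them 18, and 11 had a single read. A pair of libraries was compared for families with at least 20 reads in that pair, and the plot of levels shows the 12 families with the highest mean.

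**Figure D3:**
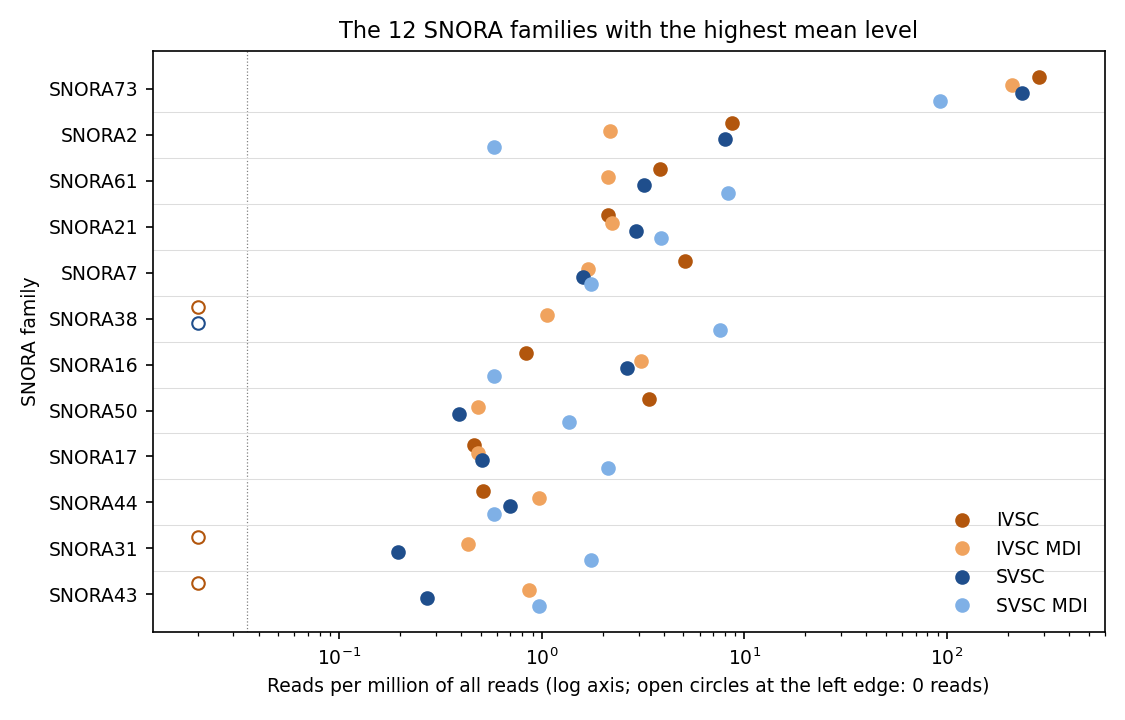
RPM (log axis) of the 12 SNORA families with the highest mean over the 4 libraries, 1 point per library. Open circles at the left edge stand for 0 reads. SNORA73 lies between 92.3 and 285 RPM and every other family at or below 8.71 RPM in each library.

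In the muscle-derived cells, 12 SNORA families could be compared between IVSC MDI and IVSC. Of these, 2 were higher with MDI and 3 were lower, where 28.1% of the 139 Rfam families compared were higher and 16.5% were lower. Their median log2 ratio was 0.06, against 0.29 over all Rfam families. In the fat-derived cells 10 families could be compared between SVSC MDI and SVSC. There 3 were higher and 3 lower, beside 21.6% higher and 28% lower of 125 Rfam families, with a median of -0.07 against -0.31. Such shares came from few families and lay near the background.

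SNORA2 was lower with MDI in both origins. In human, SNORA2 copies lie in introns of KANSL2, a gene for a subunit of a histone acetyltransferase complex. It had 188 reads in IVSC (8.71 RPM), 45 in IVSC MDI (2.17 RPM), 206 in SVSC (8.01 RPM) and 3 in SVSC MDI (0.581 RPM). Both libraries without MDI were high and nearly equal, at a ratio of 0.920 (0.751 to 1.13), and both MDI libraries were below them.

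SNORA2 was 4.01-fold lower in IVSC MDI than in IVSC (2.89 to 5.69) and 13.8-fold lower in SVSC MDI than in SVSC (4.65 to 67.4). The log2 responses differed by -1.78 (counting interval -3.49 to -0.07), the SVSC MDI value rests on 3 reads, and scaled to hairpin reads the difference was -1.19 (-2.90 to 0.52). Of the SNORA2 reads 99.5% matched no other entry and nearly all lay on 1 of its 17 entries, so they were hardly counted more than once. In the MDI libraries SVSC MDI was 3.74-fold lower than IVSC MDI (1.20 to 18.8), a call that was lost under scaling to hairpin reads (ratio 0.375) or Rfam reads (0.368).

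An additive model over all 4 libraries, with a term for origin and one for MDI, asked which differences with MDI the origins shared. It leaves 1 residual degree of freedom, which holds how far the MDI responses of the 2 origins differ, not a spread between replicates. The median prior degrees of freedom in edgeR were infinite, so the spread behind its p-values was shared over all Rfam families tested (common dispersion 0.265). These p-values therefore do not measure variation between replicate cultures. edgeR's quasi-likelihood test with Benjamini-Hochberg adjustment over 136 Rfam families, 12 of them SNORA, gave SNORA2 a log2 ratio of -2.72 (SE 0.963) with MDI and an adjusted p of 0.0616. DESeq2 on the same reads gave -2.84 and an adjusted p of 0.00461. The 2 tools thus put SNORA2 on different sides of the threshold of 0.05, and edgeR's adjusted p over its alternatives ran from 0.0606 to 0.224.

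By the same edgeR test 1 SNORA family, SNORA38, passed with MDI as higher and 0 as lower, beside 4.41% higher and 2.21% lower of all families tested. An unadjusted p under 0.05 was found for 3 of the 12 SNORA families and 24 of the 136 Rfam families. For origin, 0 of the 12 SNORA families passed in either direction, as did 0% higher and 0% lower of all families. An unadjusted p under 0.05 for origin was found by edgeR for 1 SNORA family and 7 of the 136 Rfam families. By DESeq2 it was found for 1 of 47 SNORA families and 17 of 421 Rfam families. DESeq2 also called 0 SNORA families for origin, beside 0 higher and 3 lower of the 421.

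SNORA38 had reads in the MDI libraries only. In human it lies in an intron of PRRC2A. It had 0 reads in IVSC, 22 in IVSC MDI (1.06 RPM), 0 in SVSC and 39 in SVSC MDI (7.55 RPM). With counts of 0 taken as 3 reads it was 7.63-fold higher in IVSC MDI than in IVSC and 64.7-fold higher in SVSC MDI than in SVSC. The exact intervals began at 5.70 and 50.2 and had no upper limit. SVSC MDI was 7.12-fold above IVSC MDI (4.12 to 12.6). edgeR's quasi-likelihood test with Benjamini-Hochberg adjustment gave it an adjusted p of 2.98e-05 for MDI, and DESeq2 gave 0.183.

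None of these reads belonged to SNORA38 alone. All lay on 1 of its 3 entries and all also matched other entries. A 7SK entry had the nearest counts of such shared reads, with 0, 22, 0 and 38 over the libraries. An entry of a group I intron family had 1, 24, 0 and 40, another 7SK entry 1, 23, 0 and 36, and a Y RNA entry 2, 25, 0 and 42. These were the only 4 entries of other families within 10 reads of SNORA38, summed over the libraries. 7SK, a nuclear RNA that binds the transcription factor P-TEFb, had 114, 1080, 106 and 508 reads as a family, and lsrR, a family listed from bacteria, had 8, 278, 1 and 580. Whether the reads counted under SNORA38 came from it or from one of these RNAs was not tested.

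SNORA16 had opposite calls in the 2 origins. In human it lies in SNHG12, a non-coding snoRNA host gene that also holds SNORA44 and SNORA61. It had 18 reads in IVSC (0.834 RPM), 64 in IVSC MDI (3.09 RPM), 68 in SVSC (2.64 RPM) and 3 in SVSC MDI (0.581 RPM). IVSC MDI and SVSC were high, and IVSC and SVSC MDI were low.

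With MDI SNORA16 was 3.70-fold higher in IVSC (2.17 to 6.64) and 4.55-fold lower in SVSC (1.49 to 22.6). SVSC was 3.17-fold above IVSC (1.86 to 5.67) and SVSC MDI 5.31-fold below IVSC MDI (1.74 to 26.4). Of its reads 93.5% matched no other entry, and on distinct reads all 4 differences were still called. They lay mainly on an entry with 9, 20, 50 and 2 reads and on another with 5, 43, 11 and 1. Both entries had the family's sign in each comparison, but not its size. SVSC was 4.66-fold above IVSC (2.27 to 10.8) on the former, and 1.85-fold (0.591 to 6.78) on the latter. The ratio of SVSC MDI to SVSC was 0.199 (0.0235 to 0.758) and 0.453 (0.0105 to 3.11). The additive model, in which opposite responses cancel, gave it a log2 ratio of 0.09 with MDI.

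SNORA61 and SNORA44 share the human host gene of SNORA16. SNORA61 had 83 reads in IVSC (3.84 RPM), 44 in IVSC MDI (2.12 RPM), 82 in SVSC (3.19 RPM) and 43 in SVSC MDI (8.32 RPM). It was highest in SVSC MDI, 2.61-fold above SVSC (1.76 to 3.82) and 3.92-fold above IVSC MDI (2.52 to 6.11). Only 20.2% of its reads were unique to an entry, and on distinct reads, at least 20, 22, 33 and 12, the ratios were 1.81 and 2.19 and neither was called. Its unique reads alone numbered 6, 18, 25 and 2, or 0.278, 0.868, 0.972 and 0.387 RPM. They were highest in IVSC MDI and SVSC, as those of SNORA16 were, but the SVSC MDI value rests on 2 reads. The distinct reads of SNORA61 were highest in SVSC MDI (2.32 RPM). SNORA44 had 11, 20, 18 and 3 reads, none of them unique to an entry. Its 4 log2 ratios had the sign of those of SNORA16, and none was called. For SVSC MDI against SVSC, which rests on 3 reads in SVSC MDI, the sign depended on the scaling. That log2 ratio of SNORA44 was -0.269, but 0.185 scaled to hairpin reads and 0.1925 scaled to Rfam reads.

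SNORA50 was high in IVSC alone. In human a copy lies in an intron of CNOT1, the scaffold of a deadenylase complex. It had 73 reads in IVSC (3.38 RPM), 10 in IVSC MDI (0.482 RPM), 10 in SVSC (0.389 RPM) and 7 in SVSC MDI (1.35 RPM). IVSC MDI was 7.01-fold below IVSC (3.60 to 15.2), and SVSC was 8.70-fold below IVSC (4.47 to 18.9). In the SVSC pair the reads fell short of the minimum, and the difference between the log2 responses was 4.61 (counting interval 2.92 to 6.30).

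SNORA7, which lies in an intron of RPL32 in human, was highest in IVSC on summed reads, with 110 reads (5.09 RPM), against 35 in IVSC MDI (1.69 RPM), 41 in SVSC (1.59 RPM) and 9 in SVSC MDI (1.74 RPM). The latter 3 libraries differed little among themselves. IVSC MDI was 3.02-fold below IVSC (2.05 to 4.55) and SVSC 3.20-fold below it (2.21 to 4.69). Only 15.9% of these reads were unique to an entry, and on distinct reads, at least 20, 13, 18 and 6, the ratios were 0.677 and 0.755 and neither was called. The distinct reads stood at 0.926, 0.627, 0.700 and 1.16 RPM, so that SVSC MDI and not IVSC was then highest.

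SNORA17, from the host gene SNHG7 in human, stood out in the shallowest library. It had 10 reads in IVSC (0.463 RPM), 10 in IVSC MDI (0.482 RPM), 13 in SVSC (0.505 RPM) and 11 in SVSC MDI (2.13 RPM). The first 3 libraries were equal within counting error, and SVSC MDI was 4.21-fold above SVSC (1.71 to 10.2) and 4.42-fold above IVSC MDI (1.70 to 11.6). SNORA43, which shares this host gene in human, had 0, 18, 7 and 5 reads, and its edgeR adjusted p for MDI, by the quasi-likelihood test with Benjamini-Hochberg adjustment, was 0.173 on the family sum and 0.0406 on the largest entry of each family.

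SNORA21, from an intron of RPL23 in human, was called in no comparison scaled to all reads. Its log2 ratio of SVSC MDI to IVSC MDI was 0.80, but 1.29 scaled to hairpin reads and 1.26 scaled to Rfam reads. Under those 2 scalings it was called higher in SVSC MDI. It had 46 reads in IVSC (2.13 RPM), 46 in IVSC MDI (2.22 RPM), 75 in SVSC (2.92 RPM) and 20 in SVSC MDI (3.87 RPM). Its ratio with MDI was 1.04 (0.677 to 1.60) in IVSC and 1.33 (0.768 to 2.20) in SVSC. A 2-fold drop thus lay outside both intervals, while a 2-fold rise lay within that of SVSC. SNORA31, whose human host gene TPT1 encodes a translationally controlled tumour protein, had 0, 9, 5 and 9 reads and reached the minimum in no pair.

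**Figure D4:**
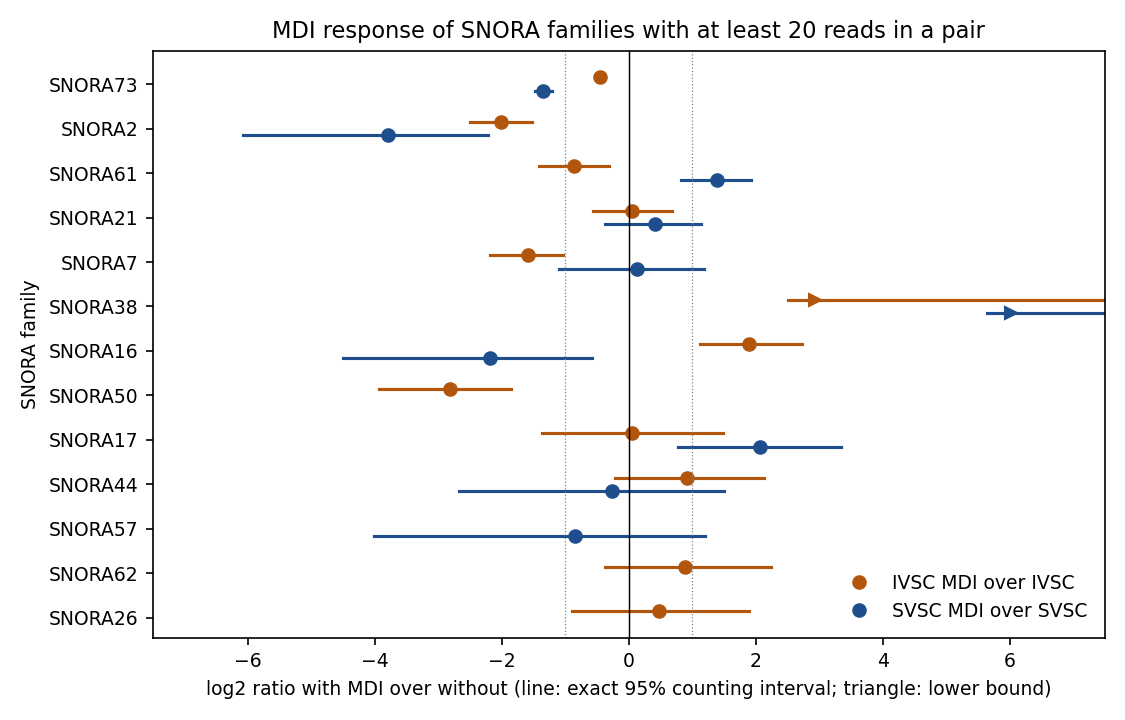
log2 ratio of the level with MDI to the level without for each SNORA family with at least 20 reads in the pair, in IVSC (orange) and SVSC (blue). Lines are exact 95% counting intervals, and dotted lines mark 2-fold. Triangles, labelled as lower bounds, take a library with 0 reads as holding 3, and their intervals reach below them. SNORA2 lies below 2-fold in both origins, SNORA38 above it in both, and SNORA16 on opposite sides.

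The responses of 9 families could be set side by side between the origins. The same overlap was not counted over all Rfam families, so the counts below have no background. Of the 9, 1 was higher with MDI in both origins (SNORA38), 1 was lower in both (SNORA2), 1 had opposite calls (SNORA16) and 2 were called in neither. The remaining 4 were called in 1 origin, and their log2 responses, SVSC minus IVSC, differed by -0.90 (counting interval -1.05 to -0.75) for SNORA73, 2.24 (1.49 to 2.99) for SNORA61, 1.72 (0.55 to 2.90) for SNORA7 and 2.02 (0.30 to 3.73) for SNORA17. On distinct reads the difference was 0.66 (-0.63 to 1.95) for SNORA61 and 1.29 (-0.38 to 2.97) for SNORA7, and both intervals included 0. For SNORA73 it was -0.54 (-0.77 to -0.31) on distinct reads and -0.31 (-0.46 to -0.17) scaled to hairpin reads, and for SNORA17 it stayed at 2.02 on distinct reads.

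Between the origins without MDI, 10 SNORA families could be compared. SNORA16 was the 1 family called higher in SVSC, and SNORA50 and SNORA7 were the 2 called lower, beside 20.6% higher and 13% lower of 131 Rfam families, and the median log2 ratio was 0.00 against 0.07. After MDI 10 could be compared again. SNORA38, SNORA17 and SNORA61 were higher in SVSC MDI than in IVSC MDI, while SNORA16, SNORA2 and SNORA73 (2.26-fold, 2.06 to 2.49) were lower, beside 10.5% higher and 24.2% lower of 124 Rfam families. The median was 0.10, against -0.45 over all Rfam families. Scaled to hairpin reads, the split in this last comparison was 4 higher, with SNORA21 added, and 1 lower. SNORA73 (ratio 0.619) and SNORA2 (0.375) were no longer called. Over all Rfam families 65.8% of the calls were then higher in place of 30.2%.

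Of the 20 calls in the 4 comparisons, 17 were kept under each of 4 other scalings and 14 on distinct reads. Those lost under scaling to hairpin or Rfam reads were the calls of SNORA73 and that of SNORA2 in SVSC MDI against IVSC MDI. The calls lost on distinct reads belonged to SNORA7, SNORA61 and SNORA73, whose entries share most of their reads, as the plot of summed against distinct reads shows. All calls of SNORA2, SNORA16, SNORA17 and SNORA50 were kept on distinct reads. Those of SNORA38 were too, but its reads lie on 1 entry, so that count could not differ from the sum.

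**Figure D5:**
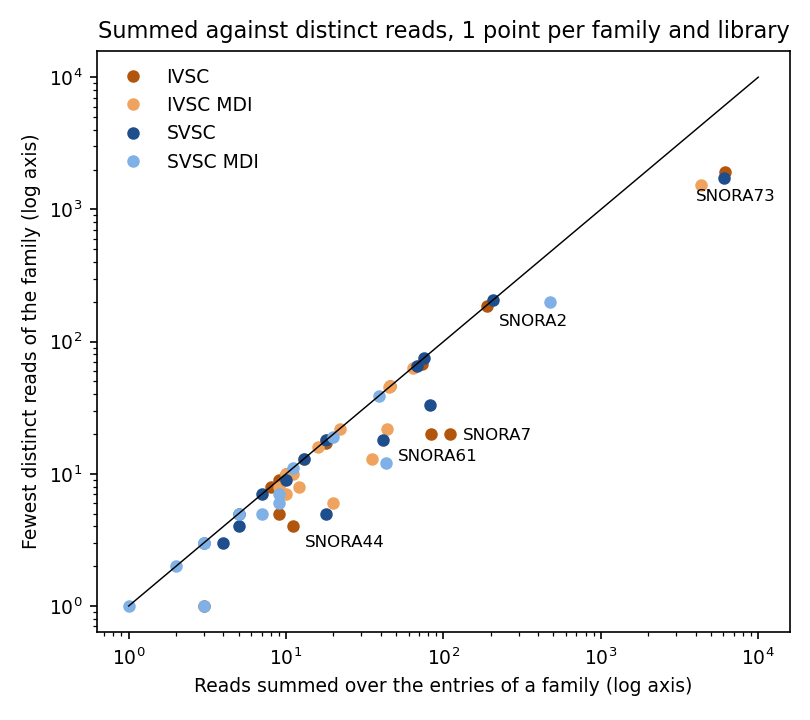
Reads summed over the entries of a family against the fewest distinct reads that could give that sum (both log axes), 1 point per library for each SNORA family with at least 20 reads in all. Points on the line are families whose reads were counted once within the family, which does not exclude counts under other families, as for SNORA38. SNORA2 lies on it, while SNORA73, SNORA61, SNORA7 and SNORA44 lie well below.

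Grouped by their host genes in human, families from SNHG hosts carried most of the reads because SNORA73 is among them. Of the 11 listed families 6 were in the files, with 290, 216, 242 and 105 RPM over the libraries. With MDI 1 of the 5 compared was higher and 0 lower in IVSC (median log2 0.06), and 2 were higher and 2 lower in SVSC (median -0.27), where all Rfam families gave 28.1% higher and 16.5% lower in IVSC and 21.6% and 28% in SVSC. Families from ribosomal protein hosts, 11 of 17 in the files, stood at 7.87, 6.12, 5.09 and 6.19 RPM, with 1 of 3 compared lower and 0 higher in IVSC and 0 of 2 called in SVSC, beside the same background. Those from translation factor hosts, 5 of 8 in the files, had 6, 11, 8 and 7 reads, and those of the TAF1D gene, 4 of 6 in the files, had 2, 5, 0 and 8 reads, so none reached the minimum in a pair.

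Other RNAs with an H/ACA domain were rarer than the abundant SNORA families. Vertebrate telomerase RNA, which ends in such a domain, had 9, 24, 21 and 7 reads, with a ratio for MDI of 2.78 (1.25 to 6.79) in IVSC and 1.66 (0.596 to 4.05) in SVSC. The 9 SCARNA families, RNAs of the Cajal body, had 6, 29, 1 and 5 reads together, and 20 of the 29 in IVSC MDI were on SCARNA6. The hairpin of miR-664, which lies within SNORA36B in human, had 269 reads in IVSC (12.5 RPM), 313 in IVSC MDI (15.1 RPM), 187 in SVSC (7.27 RPM) and 33 in SVSC MDI (6.39 RPM). It was lower in both SVSC libraries and had ratios with MDI of 1.21 (1.03 to 1.43) and 0.879 (0.588 to 1.28), while the SNORA36 family had 3 reads in all. No hairpin of miR-1248, miR-1291 or miR-3651, which lie within other H/ACA snoRNAs in human, was listed.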

How the data were processed

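Small RNAs of 4 pig cultures were sequenced, and the deposited values are read counts per feature: per the file headers, each file lists counts on Sus scrofa hairpins, Ensembl non-coding RNAs, piRNAs and Rfam entries. The aligner and the treatment of reads with several matches were not given in the sources used here. A mouse build, mm9, is named per the submitters' processing notes, with no role stated. Unnamed rows were left out, among them 1 holding the sum of a file's expression values (4071523). A read can stand in several entries. The count of distinct reads was therefore bounded from below by the largest count of shared reads on 1 entry plus all reads that the deposited column of unique exact counts holds, taken as reads on no other entry.

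The total count was summed per family and divided by the sum of the counts on all features of the file. That sum also counts a read once per feature it is listed under. It was 5166494 to 25725723, so 3 reads are worth 0.117 to 0.581 RPM. Ratios have exact Clopper-Pearson intervals at 95%, conditional on both libraries' reads (SciPy 1.17.1). Calls needed 2-fold, an interval excluding 1 and 20 reads in the pair. The additive model used edgeR 4.0.16 on all Rfam families that passed filterByExpr, with file totals as library sizes, and DESeq2 1.42.0 as the alternative (R 4.3.3). The scripts were tested on simulated data. Differences between responses have normal-approximation counting intervals. Named were the 12 families with the highest mean level and up to 5 called families per direction and comparison. SNORA57, SNORA62, SNORA26 and SNORA70 are covered by counts only, and the SNORA73 split, SNORA36, SNORA79 and the 7SK, Y RNA and lsrR entries were picked after their values were seen. Members and lists, with host genes from human, were chosen with earlier results of these data known. Alternatives were the scaling, the entry counted, the read minimum, the fold and the tool. No snoRNA sequence was used here.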

Additional observations from a re-analysis of the deposited data

Results flagged for a closer look

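SNORA16 responded to MDI in opposite directions in the 2 origins. Its log2 ratio with MDI was 1.89 in IVSC and -2.19 in SVSC, a difference of -4.07 with a counting interval of -5.91 to -2.24. The difference has no replicate behind it, and the SVSC MDI value rests on 3 reads. It is also a sum over entries. On the entry with 5, 43, 11 and 1 reads the ratio of SVSC MDI to SVSC was 0.453 (0.0105 to 3.11).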

How the results depend on the processing

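The log2 ratio of the SNORA sum kept its sign in all 4 comparisons under every other scaling and on the largest entry or distinct reads, but not its size. For IVSC MDI against IVSC (log2 -0.44) it was -0.58 scaled to hairpin reads, -0.21 to Rfam reads, -0.54 with TMM factors, -0.64 with DESeq2 size factors, -0.23 on the largest entry of each family and -0.24 on distinct reads. For SVSC MDI against SVSC (-1.004) the values were -0.55, -0.54, -1.36 (TMM), -0.36 and -0.37, and it turned to 0.67 without SNORA73. For SVSC against IVSC (-0.28) it was -0.38 scaled to hairpin reads and -0.042 to Rfam reads. The latter is a ratio of 0.971 with a counting interval of 0.939 to 1.005, which included 1. For SVSC MDI against IVSC MDI (-0.84) it was -0.35, -0.38, -1.08 (TMM), -0.70 (DESeq2), -0.43 and -0.45, and 0.82 without SNORA73. Scaling to hairpin reads shifts every log2 ratio by -0.13, 0.45, -0.10 and 0.49 in the order given here, which is why the sums move.

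Called families depended on the reads required. For pairs, shares over all Rfam families were not counted at the other minimums or on the largest entry. In IVSC MDI against IVSC, 5 of 12 SNORA families were called, beside 28.1% higher and 16.5% lower of 139 Rfam families. There 9 were called with no minimum and 2 with at least 100 reads. In SVSC MDI against SVSC, 6 of 10 were called, beside 21.6% higher and 28% lower of 125. There 10 were called with no minimum, 3 with at least 100 reads and 3 on the largest entry. In SVSC against IVSC, 3 of 10 were called, beside 20.6% higher and 13% lower of 131, and 1 with at least 100 reads. In SVSC MDI against IVSC MDI, 6 of 10 were called, beside 10.5% higher and 24.2% lower of 124. There 1 was called with at least 100 reads and 3 on the largest entry. For MDI over both origins edgeR called 1 of 12 SNORA families, beside 6 higher and 3 lower of 136 Rfam families. On the largest entry it called 2 of 9 (SNORA38 and SNORA43), beside 9 higher and 3 lower of 112. DESeq2 called 1 of 17, SNORA2 in place of SNORA38, beside 9 higher and 11 lower of 160. The calls split into 3 higher and 3 lower for SVSC MDI against SVSC, and into 3 and 2 scaled to hairpin or Rfam reads. Over all Rfam families that split was 27 and 35, and 35 and 25 under both scalings.

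The difference of the MDI response of the SNORA sum between origins, -0.56, was 0.028 scaled to hairpin reads and -0.13 on distinct reads. These 2 settings, the distinct reads and the sums without SNORA73 or SNORA38 were chosen after seeing the data. With 1 library per group, leaving a library out removes the comparisons that use it and does not alter the others, and the additive model then has no residual degree of freedom. The low depth of SVSC MDI limits every family with few reads there.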
